A study of Mus musculus with 31 samples.

Results

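The 10 genes described here encode CHOP, ATF3 and the stress factors and effectors linked to them downstream of the transcription factor ATF4. They are Ddit3, Atf3, Atf5, Trib3, Nupr1, Ppp1r15a, Chac1, Cebpb, Cebpg and Ddit4, out of 17097 genes named on the array. Where several probe sets carried a gene's symbol, the brightest over all arrays stood for it, and all 10 members passed the filter on low values in every comparison. Total RNA of mouse liver was measured on 31 Affymetrix arrays in 8 groups, all from male mice, in a study of the mRNAs that IRE1 cleaves and of the direct targets of XBP1. Xbp1 ko mice and their WT littermates were compared at 14 weeks of age, both fed and labelled C57BL/6. Further Xbp1 ko mice, aged 9 weeks and labelled C57BL/6, received siRNA labelled against IRE1 or against luciferase, a control target, and were sampled after 8 days, so that both of these groups lack Xbp1. Ire1 ko mice of mixed strain and WT mice labelled C57BL/6, all aged 14 weeks, were taken 6 h after tunicamycin at 2 mg/kg or untreated in the fed state. Untreated Ire1 ko held 3 arrays and each other group 4, which the labels call biological replicates.

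Several limits follow from these labels. The untreated WT mice are called littermates of the Ire1 ko mice although their strain entries differ, so a difference of strain cannot be told apart from one of Ire1 genotype. The untreated mice served as the controls for tunicamycin, and an injection of vehicle is not mentioned in the labels. The promoter of any Cre, the deleted exons and the cell types that lost Xbp1 or Ire1 are not given in the sources used here.

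Tunicamycin blocks N-glycosylation, so that unfolded glycoproteins gather in the endoplasmic reticulum (ER). The kinase PERK then phosphorylates the translation factor eIF2α, which slows protein synthesis in general but favours translation of ATF4. ATF4 turns on CHOP (Ddit3), a C/EBP family member tied to cell death, and ATF3, a repressor or activator depending on its partner, while GADD34 (Ppp1r15a) guides the removal of the phosphate from eIF2α. IRE1α, encoded by Ern1, is a separate sensor that splices the Xbp1 mRNA.

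Composite C/EBP-ATF sites are the elements through which ATF4 and its C/EBP partners reach many of their targets, so the members' promoters were searched for them and for 4 other stress-response motifs. Stretches with a match before the start are shown for 3 members with the composite core and for Ppp1r15a, which holds a different element. The windows ran from 250 bases before to 50 bases after each annotated start in the mouse genome (GRCm38.p6, sequences from RefSeq), and all 10 members matched, with 11 windows. The core of the composite site, TGATGNAAN or its reverse complement NTTNCATCA, lay in the window of 4 members, against 3.95% of all 32851 windows. In Atf3 and Nupr1 it lay at positions -111 to -103 relative to the start, in Chac1 at -194 to -186, and in Trib3 from base 13 after the start. The cyclic AMP response element TGACGTCA, held by 1.79% of all windows, was found in Ppp1r15a, at -12 to -5. Capitals mark these matches in the stretches below, which are written 5′ to 3′ on the strand of the gene and lie at chr1:191183406-191183474 (minus strand) for Atf3, chr2:119351018-119351086 (plus strand) for Chac1, chr7:126625543-126625611 (minus strand) for Nupr1 and chr7:45526269-45526310 (minus strand) for Ppp1r15a.
Atf3: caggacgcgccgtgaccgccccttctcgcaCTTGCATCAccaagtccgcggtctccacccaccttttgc
Chac1: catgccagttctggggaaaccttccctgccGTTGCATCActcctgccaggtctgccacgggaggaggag
Nupr1: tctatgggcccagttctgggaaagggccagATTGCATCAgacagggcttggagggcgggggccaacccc
Ppp1r15a: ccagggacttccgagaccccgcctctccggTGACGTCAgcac
The Ddit3 window held the AP-1 letters TGAGTCA or TGACTCA, present in 5.2% of windows, at -242 to -236, and the XBP1 core GACGTG or CACGTC, present in 6.38% of windows, from base 21 after it. The ER stress response element (ERSE) was found in 0 member windows and in 0.119% of all windows. No match in a member overlapped another, and a match is a description of letters, not a measured binding site.

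Probe set intensities had a floor: the lowest value was 3, the median 5, and 66.2% of all values were 6 or less, so fold changes of genes near the floor depend on the authors' background correction. The 8 hepatocyte markers were bright on every array but not level between groups. They summed to 34112 to 36655 in Xbp1 ko and 37085 to 40787 in WT littermates. In Xbp1 ko 2 of 8 were called lower (Apoa1 and Cyp2e1), against 2.07% of all genes. The same markers summed to 33000 to 33354 on the arrays labelled IRE1 siRNA and 35169 to 36376 on those labelled luciferase siRNA. Again 2 of 8 were lower (Serpina1a and Cyp2e1), against 1.14% of all genes. Xbp1 had intensities of 505, 404, 567 and 404 in Xbp1 ko and of 912, 807, 1140 and 916 in WT littermates. Ern1 did not follow the siRNA labels: it read 169, 184, 236 and 230 on the arrays labelled IRE1 siRNA and 21, 18, 23 and 35 on those labelled luciferase siRNA, a difference of 3.11 on the log2 scale (SE 0.22). Every direction between those groups below is given as labelled and would turn round if the labels were exchanged, which was not tested. In Xbp1 ko without siRNA, at 14 weeks of age, Ern1 read 175, 198, 181 and 201, near the arrays labelled IRE1 siRNA and far above those labelled luciferase siRNA. Ern1 read 150, 153 and 148 in untreated Ire1 ko and 136, 121, 203 and 137 in untreated WT, and where its probes lie relative to the deletion is not known here. Replicate 2 of untreated Ire1 ko stood apart from the other arrays of its group for several members. For Ddit3, Nupr1, Ppp1r15a and Atf5 some results that rest on it are given with and without it.

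Tunicamycin raised 10 of the 10 members in Ire1 ko liver and 9 of 10 in WT liver. The background was high, since of the 15172 genes tested 17.4% were called higher and 10.3% lower in Ire1 ko (27.7% in all), and 18.5% higher and 17.6% lower in WT (36.1% in all), by limma at an adjusted p below 0.05. The split of all calls depended on scaling. In Ire1 ko 2634 genes were higher and 1570 lower, against 2055 and 2226 after quantile normalization and 1883 and 3395 after scaling to a common median. In WT 2807 were higher and 2677 lower, against 2368 and 3963 with a common median. The members had a median log2 change of 2.77 in Ire1 ko and 3.88 in WT, while the medians over all genes tested were 0 and -0.02. In these bulk samples a change in the number of cells of a type and a change in RNA per cell cannot be told apart.

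Ddit3, which encodes CHOP, had intensities of 2976, 2902, 3002 and 2896 in Ire1 ko after tunicamycin, against 14, 117 and 16 in untreated Ire1 ko. In WT it had 3946, 4138, 3458 and 3389 after tunicamycin, against 16, 18, 11 and 14 untreated. Every tunicamycin array was far above every untreated array, and 117 in the untreated Ire1 ko replicate 2 was the highest reading without the drug. The log2 change was 6.63 in Ire1 ko (SE 0.49; adjusted p = 5.06e-08) and 8.00 in WT (SE 0.45; adjusted p = 7.84e-10), the WT change being a 256.3-fold rise. Without that replicate the log2 change in Ire1 ko was 7.62.

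Atf3, the stress-induced partner of other bZIP factors, read 974, 1178, 689 and 837 in Ire1 ko after tunicamycin, against 7, 8 and 5 untreated. In WT it read 1133, 1551, 958 and 959 after tunicamycin, against 5, 5, 6 and 5 untreated. Atf3 thus lay at the floor of the array without the drug and was readily measured on all 8 arrays with it. The log2 change was 7.11 in Ire1 ko (SE 0.20; adjusted p = 4.01e-12) and 7.75 in WT (SE 0.19; adjusted p = 1.05e-13). Since the untreated arrays of Atf3, Nupr1, Trib3 and Ddit4 lay at or near the floor, the sizes of their changes rest on the floor value and are not measured on both sides. Ddit3 and Chac1 also began low, at 11 to 18 and 11 to 24 in untreated WT, and Chac1 at 9 to 10 in untreated Ire1 ko. The sizes of their changes are therefore uncertain too.

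Nupr1, a small chromatin-associated stress protein, gave 448, 562, 688 and 693 in Ire1 ko after tunicamycin, against 5, 16 and 5 untreated. In WT it gave 1203, 871, 1462 and 1111 after tunicamycin, against 5, 5, 5 and 6 untreated. It rose by a log2 change of 6.32 in Ire1 ko (SE 0.31; adjusted p = 7.12e-10) and of 7.77 in WT (SE 0.29; adjusted p = 1.24e-11). Without replicate 2 of untreated Ire1 ko the change of Nupr1 in Ire1 ko was 6.88. Trib3, a pseudokinase that is induced by CHOP and ATF4 and can restrain them, read 822, 772, 655 and 635 in Ire1 ko after tunicamycin, against 6, 8 and 12 untreated. In WT Trib3 read 447, 458, 687 and 491 after tunicamycin, against 6, 8, 5 and 6 untreated. The Trib3 change was alike in size, 6.43 in Ire1 ko (SE 0.22; adjusted p = 1.72e-11) and 6.38 in WT (SE 0.20; adjusted p = 2.3e-12).

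Chac1, which degrades glutathione, had 42, 52, 51 and 46 in Ire1 ko after tunicamycin, against 10, 10 and 9 untreated. In WT it had 407, 407, 350 and 330 after tunicamycin, against 13, 16, 11 and 24 untreated. Chac1 therefore rose in both genotypes, but to a far lower level in Ire1 ko: the log2 change was 2.30 there (SE 0.20; adjusted p = 3.01e-07) and 4.60 in WT (SE 0.18; adjusted p = 2.16e-11). Ppp1r15a, the GADD34 subunit of the eIF2α phosphatase, read 105, 110, 94 and 88 in Ire1 ko after tunicamycin, against 19, 32 and 17 untreated. In WT Ppp1r15a read 193, 192, 174 and 184 after tunicamycin, against 28, 19, 14 and 25 untreated. It rose by a log2 change of 2.18 in Ire1 ko (SE 0.22; adjusted p = 1.78e-06) and of 3.16 in WT (SE 0.21; adjusted p = 4.33e-09). Without replicate 2 of untreated Ire1 ko the change of Ppp1r15a in Ire1 ko was 2.46.

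Atf5, a bZIP factor whose translation is also favoured when eIF2α is phosphorylated, began well above the floor. It read 1052, 1051, 1048 and 1130 in Ire1 ko after tunicamycin, against 208, 111 and 283 untreated. In WT Atf5 read 1038, 812, 1203 and 1045 after tunicamycin, against 240, 264, 155 and 193 untreated. Groups with and without the drug did not overlap in either genotype, and the log2 change was 2.52 in Ire1 ko (SE 0.24; adjusted p = 9.19e-07) and 2.28 in WT (SE 0.22; adjusted p = 4.37e-07). Without replicate 2 of untreated Ire1 ko, the array that read 111, the change in Ire1 ko was 2.14, below that in WT. Ddit4, known as REDD1, an inhibitor of the growth kinase complex mTORC1, was the dimmest responder, with 15, 70, 41 and 35 in Ire1 ko after tunicamycin against 4, 5 and 4 untreated. In WT Ddit4 read 43, 24, 43 and 17 after tunicamycin against 4, 3, 4 and 5 untreated. Relative to their mean its arrays were the most scattered among the members after tunicamycin, and the log2 change was 3.02 in Ire1 ko (SE 0.41; adjusted p = 2.99e-05) and 2.90 in WT (SE 0.38; adjusted p = 9.59e-06).

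The C/EBP partners of CHOP parted from each other. Cebpg, a short C/EBP protein that pairs with ATF4 and CHOP, read 401, 468, 414 and 321 in Ire1 ko after tunicamycin, against 114, 93 and 104 untreated. In WT Cebpg read 287, 399, 278 and 347 after tunicamycin, against 101, 98, 120 and 127 untreated. Cebpg rose by a log2 change of 1.94 in Ire1 ko (SE 0.15; adjusted p = 9.17e-08) and of 1.55 in WT (SE 0.14; adjusted p = 1.7e-07).

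Cebpb, a C/EBP factor of the liver's acute phase and gluconeogenic programmes, had 433, 534, 466 and 498 in Ire1 ko after tunicamycin, against 281, 403 and 323 untreated. In WT it had 281, 259, 299 and 271 after tunicamycin, against 312, 322, 320 and 395 untreated. The Ire1 ko arrays with the drug thus all lay above those without it, while the WT arrays with the drug all lay below theirs. Cebpb rose in Ire1 ko by a log2 change of 0.54 (SE 0.12; adjusted p = 0.00291), whereas the WT difference of -0.28 (SE 0.11; adjusted p = 0.0672) was not called. That WT difference was called after quantile normalization (-0.34; adjusted p = 0.025) and after scaling to a common median (-0.40; adjusted p = 0.013). Common-median scaling moved the median over all genes to -0.18 in Ire1 ko and to -0.14 in WT, so the change of Cebpb relative to other genes differed little. With a filter at a group mean of 16 the WT difference of Cebpb had an adjusted p = 0.0362.

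**Figure D1:**
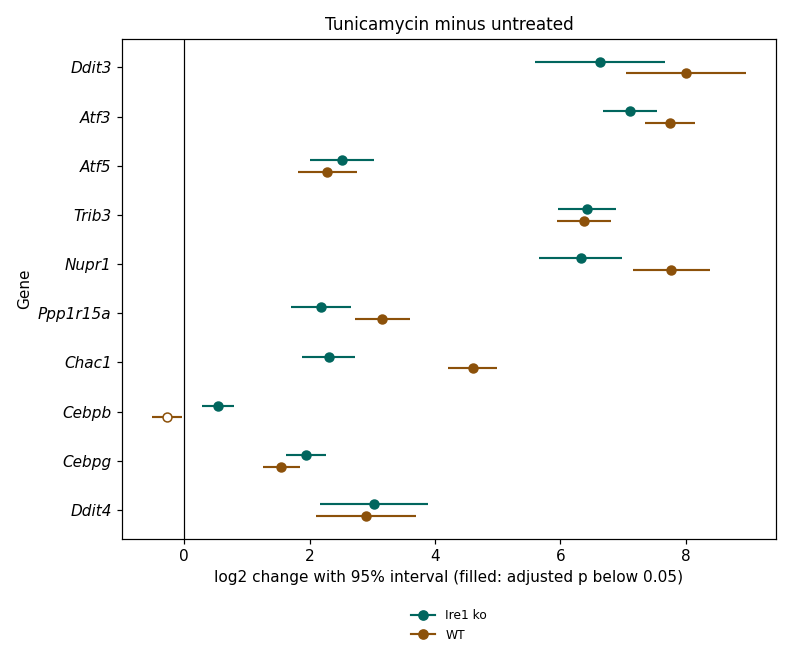
Log2 change of each member after tunicamycin, with 95% confidence intervals from limma, in Ire1 ko (green, upper) and WT (brown, lower). Filled points passed the adjusted p threshold of 0.05. Ddit3, Atf3, Nupr1 and Trib3 lie above 6 in both genotypes, Chac1 is at 2.30 in Ire1 ko and 4.60 in WT, and Cebpb in WT is the only open point, at -0.28.

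Some cell type markers moved with the drug. Over all genes 17.4% were higher and 10.3% lower in Ire1 ko, and 18.5% higher and 17.6% lower in WT. The endothelial and stellate counts in Ire1 ko and the hepatocyte marker higher in WT are near these shares. The 10 Kupffer cell markers summed to 735 to 1063 in Ire1 ko after tunicamycin and to 687 to 2263 in untreated Ire1 ko, with 0 of 10 called. In WT the same sums were 498 to 682 after tunicamycin and 702 to 1476 untreated, and 3 of the 10 (Cd68, Vsig4 and Cd5l) were called lower. Of 7 endothelial markers, 1 was lower in Ire1 ko after tunicamycin, and 1 was higher and 3 were lower in WT. Of 7 stellate cell markers tested, 1 was lower in Ire1 ko and 2 in WT. The hepatocyte markers moved as well: they summed to 35191 to 37797 in Ire1 ko after tunicamycin and 33552 to 39172 untreated, with 2 of 8 higher (Tat and Hnf4a). In WT they summed to 33019 to 33479 after tunicamycin and 35342 to 38146 untreated, with 1 higher (Tat) and 4 lower. After tunicamycin 2 of 8, Hnf4a at 0.55 and Cyp2e1 at 0.16 on the log2 scale, were higher in Ire1 ko than in WT. Over all genes that share was 9.68%. Neutrophil markers summed to 31 to 99 over 7 genes on all arrays, near the floor, and 0 of the 6 tested were called. No marker reads 0 on this array, and the part of these cell types in the results was not tested.

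After tunicamycin, 4 of the 10 members differed between Ire1 ko and WT liver: Chac1, Nupr1 and Ppp1r15a were lower in Ire1 ko, and Cebpb was higher. Of all genes tested, 18.2% were called in this comparison, 9.68% higher and 8.5% lower in Ire1 ko. The median log2 difference was -0.12 over the members and 0.01 over all genes.

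Chac1 averaged 47.75 ± 4.65 in Ire1 ko after tunicamycin and 373.5 ± 39.5 in WT after tunicamycin (SD, n = 4 each), a difference of -2.97 on the log2 scale (SE 0.18; adjusted p = 6.43e-09) or 0.128 of the WT level. The highest Ire1 ko array, at 52, was far below the lowest WT array, at 330. The rise itself differed between the genotypes: the interaction, that is the log2 change in Ire1 ko minus that in WT, was -2.30 for Chac1 (SE 0.27; adjusted p = 4.64e-05).

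Ppp1r15a averaged 99.25 ± 10.05 in Ire1 ko after tunicamycin and 185.8 ± 8.81 in WT after tunicamycin (SD, n = 4 each), a difference of -0.91 on the log2 scale (SE 0.21; adjusted p = 0.00489). The ranges of 88 to 110 and 174 to 193 did not overlap. Nupr1 averaged 597.8 ± 117 in Ire1 ko and 1162 ± 244 in WT (SD, n = 4 each), a difference of -0.96 on the log2 scale (SE 0.29; adjusted p = 0.03), and its ranges of 448 to 693 and 871 to 1462 did not overlap either. The call of Nupr1 was lost when no filter on low values was used (adjusted p = 0.0627) and without any of 5 of the 8 arrays: Ire1 ko replicates 1 and 2 (adjusted p = 0.101 and 0.07) and WT replicates 1, 3 and 4 (adjusted p = 0.0762, 0.0994 and 0.0601). A second probe set of Nupr1 gave a log2 difference of -1.09 (adjusted p = 0.00113).

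Cebpb averaged 482.8 ± 43.3 in Ire1 ko after tunicamycin and 277.5 ± 16.9 in WT after tunicamycin (SD, n = 4 each), a difference of 0.80 on the log2 scale (SE 0.11; adjusted p = 7.14e-05). Its interaction was 0.81 (SE 0.17; adjusted p = 0.00542), with estimated changes of opposite sign in the 2 genotypes. Over the 8 groups, Cebpb was highest in Ire1 ko after tunicamycin, with a range of 433 to 534 that met only that of the arrays labelled luciferase siRNA (228 to 439), and lowest in WT after tunicamycin, whose range overlapped that of the next group, Xbp1 ko.

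Of all genes tested, 7.53% were called for the interaction (3.58% positive, 3.95% negative), and 2 of the 10 members were, Chac1 and Cebpb. Nupr1 had an interaction of -1.45 (SE 0.43; adjusted p = 0.051) and Ppp1r15a one of -0.98 (SE 0.30; adjusted p = 0.0667), neither of which passed the threshold. Both passed it after quantile normalization (adjusted p = 0.0494 and 0.0493), with a common median (0.0202 and 0.0305), with a filter at 16 (0.0246 and 0.0321) and in one fit over all arrays (0.004 and 0.0364). They also passed it without replicate 3 of untreated Ire1 ko, at -1.73 (adjusted p = 0.0282) for Nupr1 and -1.16 (adjusted p = 0.0413) for Ppp1r15a. Nupr1 alone passed it without replicate 1 of that group (adjusted p = 0.0259), and Ppp1r15a alone without replicate 1 of untreated WT (adjusted p = 0.0381). Ddit3 had -1.37 (SE 0.66; adjusted p = 0.274), and -0.38 (adjusted p = 0.348) without replicate 2 of untreated Ire1 ko, the array that read 117. Without the same array the interaction of Nupr1 was -0.89 (adjusted p = 0.0564) and that of Ppp1r15a -0.70 (adjusted p = 0.177).

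The other 6 members were not called between the genotypes after tunicamycin. For Ddit3 the mean was 2944 ± 53.1 in Ire1 ko and 3733 ± 367 in WT (SD, n = 4 each), a difference of -0.34 on the log2 scale (95% interval -1.29 to 0.62; adjusted p = 0.718). All 4 Ire1 ko arrays lay below all 4 WT arrays, and with the spread estimated without replicate 2 of untreated Ire1 ko the adjusted p was 0.0839. Atf3 differed by -0.32 (95% interval -0.72 to 0.08; adjusted p = 0.311) and Trib3 by 0.48 (95% interval 0.06 to 0.91; adjusted p = 0.121), each with overlapping arrays. The differences of Cebpg, Ddit4 and Atf5 were 0.29, 0.25 and 0.08, with adjusted p = 0.187, 0.725 and 0.895, and their arrays overlapped between the genotypes.

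**Figure D2:**
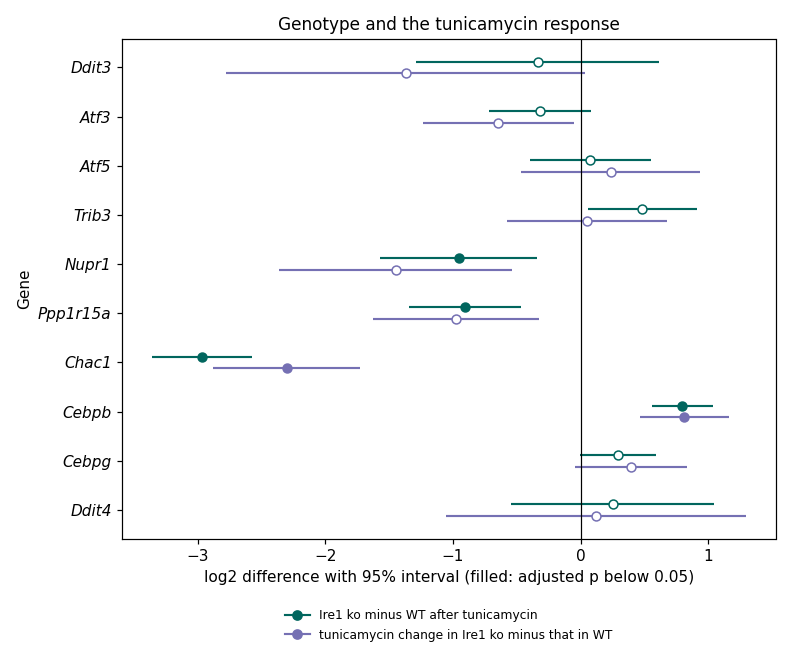
Differences of each member between Ire1 ko and WT, on the log2 scale with 95% confidence intervals from limma. Green points (upper) are Ire1 ko minus WT after tunicamycin, purple points (lower) the tunicamycin change in Ire1 ko minus that in WT, and filled points passed the adjusted p threshold of 0.05. Chac1 lies at -2.97 and -2.30, Cebpb at 0.80 and 0.81, and the interaction of Ddit3 has the widest interval, from -2.78 to 0.03.

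Without tunicamycin, 0 of the 10 members were called in any of the 3 comparisons. The background was low. In Xbp1 ko 2.71% of the 14008 genes tested were called, 0.642% higher and 2.07% lower. Between the siRNA groups 1.79% of 14030 were called, 0.649% higher and 1.14% lower on the arrays labelled IRE1 siRNA. In untreated Ire1 ko 0.943% of 15172 were called, 0.0791% higher and 0.863% lower. Here too the split of calls moved with scaling: between the siRNA groups it was 91 higher and 160 lower, against 69 and 202 once quantiles were equalised and 51 and 282 under common-median scaling. In untreated Ire1 ko it was 12 and 131, against 30 and 106 with a common median. At an unadjusted p under 0.05, limma gave 1 member higher in Xbp1 ko, 3 higher and 1 lower on the arrays labelled IRE1 siRNA, and 1 higher and 1 lower in untreated Ire1 ko. At the same unadjusted threshold, 1957 of 14008, 2076 of 14030 and 1441 of 15172 genes passed, so the counts in Xbp1 ko and untreated Ire1 ko are near the background.

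Ddit3 read 16, 15, 15 and 15 in Xbp1 ko and 18, 16, 11 and 11 in WT littermates, so a difference in CHOP mRNA was not detectable here (log2 difference 0.16, 95% interval -0.25 to 0.56; adjusted p = 0.739). It read 21, 22, 21 and 16 on the arrays labelled IRE1 siRNA and 19, 28, 19 and 24 on those labelled luciferase siRNA, which overlapped. In untreated mice its log2 difference between Ire1 ko and WT was 1.03 (SE 0.49; adjusted p = 0.523), and 0.04 without replicate 2 of Ire1 ko. That array was also the highest of its group for Nupr1, at 16 against 5 and 5, and for Ppp1r15a, at 32 against 19 and 17. It was the lowest for Atf5, at 111 against 208 and 283.

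Atf3 stayed between 4 and 8 on all arrays without tunicamycin, Ddit4 between 3 and 8, and Nupr1 between 4 and 8 apart from the value of 16 just named. A difference among these groups near the floor was not detectable on this array unless it was large. Trib3 lay between 5 and 16 on the same arrays, with its highest value on an array labelled luciferase siRNA. In the Ire1 ko experiment the filter on low values counted the tunicamycin arrays as well. Members near the floor in untreated mice could therefore enter the untreated comparison through those arrays. With 1 array left out, Ddit4 passed the filter in 5 runs for Xbp1 ko and 5 for the siRNA groups, against 8 for Atf3.

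Atf5 and Cebpg came nearest to a call between the siRNA groups. Atf5 read 246, 306, 322 and 188 on the arrays labelled IRE1 siRNA and 128, 130, 206 and 156 on those labelled luciferase siRNA, a difference of 0.77 on the log2 scale (SE 0.22; adjusted p = 0.163) with overlapping arrays. Cebpg read 105, 130, 158 and 127 against 91, 89, 88 and 105, in the same order of groups, a difference of 0.47 on the log2 scale (SE 0.13; adjusted p = 0.145). With a filter at a group mean of 16 both were called, with adjusted p = 0.0341 for Atf5 and 0.0438 for Cebpg. That setting called 402 of 5887 genes, against 251 of 14030 in the main one. Atf5 also read 372, 254, 258 and 300 in Xbp1 ko and 184, 273, 187 and 237 in WT littermates, a difference of 0.43 on the log2 scale (SE 0.17; adjusted p = 0.291).

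Chac1 was low in every untreated group. It read 10, 10 and 9 in untreated Ire1 ko and 13, 16, 11 and 24 in untreated WT, which did not overlap, a difference of -0.66 on the log2 scale (SE 0.20; adjusted p = 0.181). In Xbp1 ko Chac1 read 14, 14, 14 and 15, against 20, 13, 19 and 23 in WT littermates, a difference of -0.37 on the log2 scale (SE 0.17; adjusted p = 0.408). That of Xbp1 ko became -0.53 (adjusted p = 0.0488) without replicate 2 of the WT littermates. Ppp1r15a and Cebpb overlapped between the groups in all 3 comparisons.

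**Figure D3:**
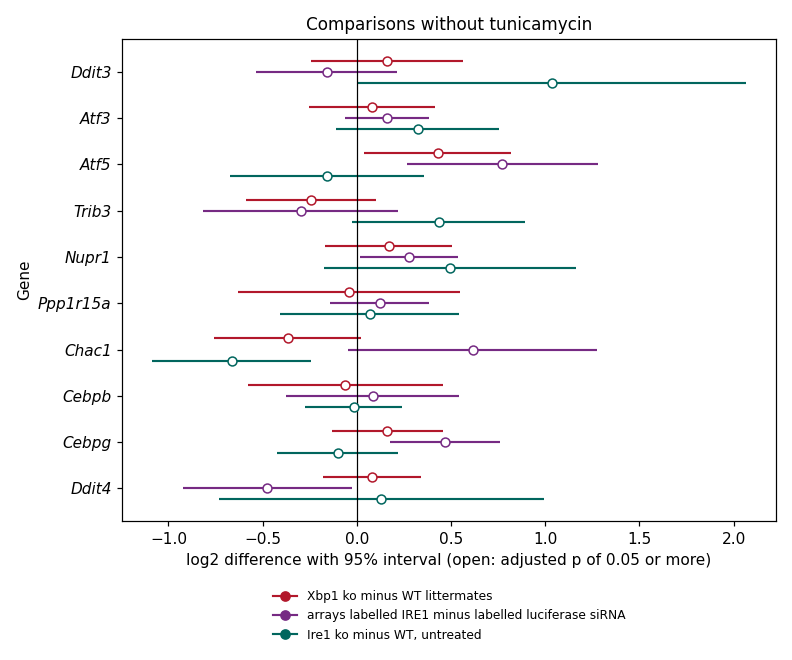
Differences of each member in the 3 comparisons without tunicamycin, on the log2 scale with 95% confidence intervals from limma. Red is Xbp1 ko minus WT littermates, purple the arrays labelled IRE1 siRNA minus those labelled luciferase siRNA, and green untreated Ire1 ko minus untreated WT. All points are open, meaning that none passed the threshold, and the green interval of Ddit3 is the widest, from 0.00 to 2.06.

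**Figure D4:**
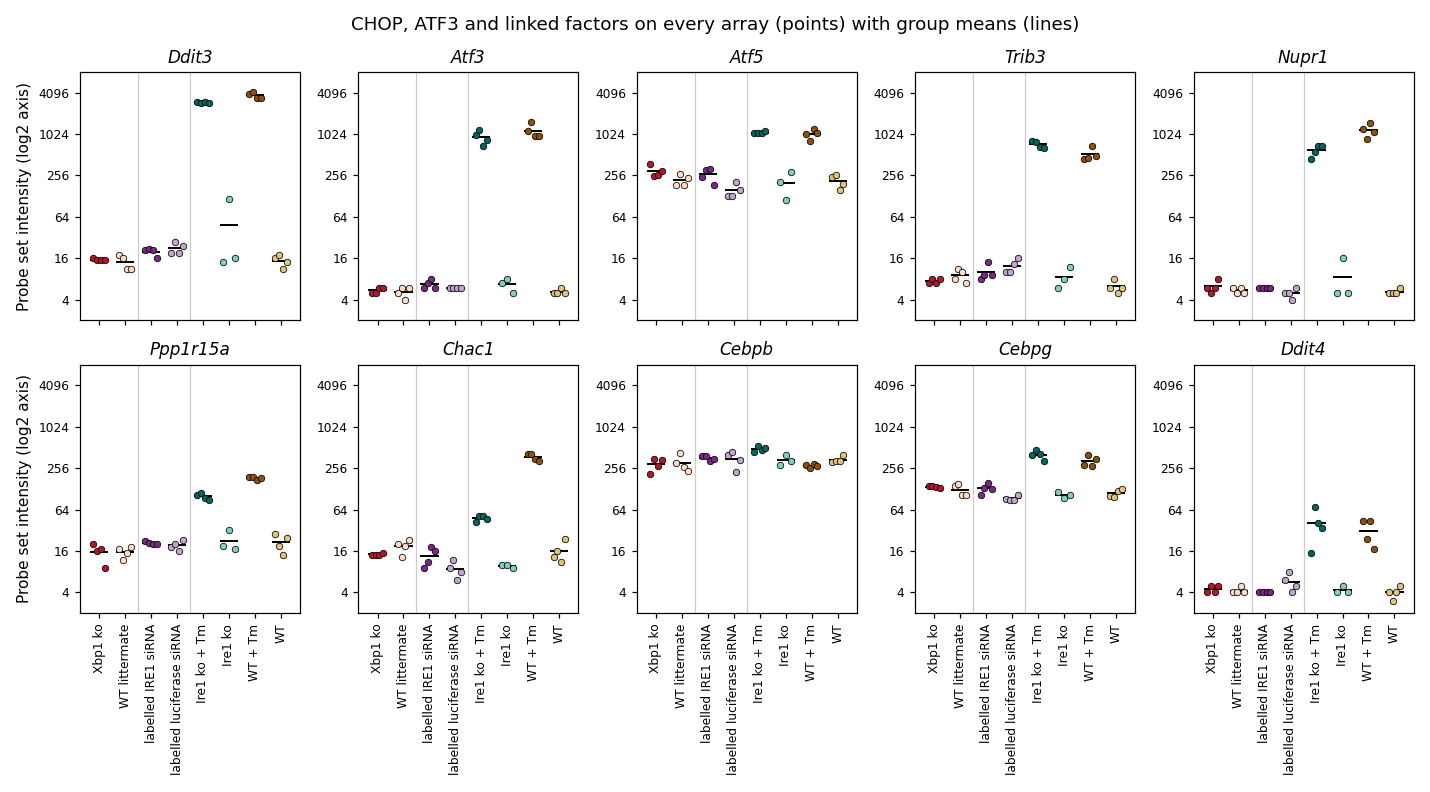
Intensity of each member on every array (points; log2 axis) with group means (lines), by group, where Tm stands for tunicamycin and grey lines part the 3 experiments. For 9 members the tunicamycin groups lie above all other groups without overlap, and how many of all genes do so was not counted. Cebpb is the exception, spanning 212 to 534 over all 31 arrays, with WT after tunicamycin at 259 to 299.

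Across all 8 groups, both tunicamycin groups lay above every other group for 9 members, and neighbouring groups without the drug overlapped in range for all of them. How many of all genes part in this way was not counted. Of all genes, 17.4% in Ire1 ko and 18.5% in WT were called higher after the drug. Between the tunicamycin groups, ranges were apart for Ddit3, Nupr1, Ppp1r15a and Chac1, each lower in Ire1 ko, and for Cebpb, higher in Ire1 ko. They overlapped for Atf3, Atf5, Trib3, Cebpg and Ddit4. How many of all genes have ranges apart between the tunicamycin groups was not counted either, and 18.2% of all genes were called in that comparison. Over the 31 arrays, Ddit3 correlated most with Nupr1 among the members (Pearson r = 0.99 of log2 intensities). Cebpb was the member least like the others, with correlations between -0.09 (Chac1) and 0.33 (Ddit4). Among 5824 genes with a mean intensity of at least 16, the closest to Ddit3 were Tnfrsf12a, Ifrd1, Tbpl1, Cln8 and Fgf21, each at r = 0.98. The closest to Atf3 were Tnfrsf12a, Tbpl1, Bco1, Gadd45a and Cln8, each at r = 0.99. For Cebpb they were Lcat (r = 0.74), Sigirr, Pih1d1 and Zfyve9 (0.72 each) and Phb2 (0.71). The 31 arrays include the 8 with tunicamycin, and the correlations are given as a description.

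Upstream of the members, Atf4 read 950, 905, 853 and 889 in Ire1 ko after tunicamycin, against 156, 251 and 169 untreated. In WT Atf4 read 1491, 1673, 1440 and 1235 after tunicamycin, against 320, 305, 276 and 294 untreated. Ire1 ko lay below WT in either state, by a log2 difference of -0.69 after tunicamycin (SE 0.13; adjusted p = 0.000808) and of -0.67 untreated (SE 0.14; adjusted p = 0.0228). The rise itself was alike in size, 2.26 in Ire1 ko and 2.28 in WT, with an interaction of -0.02. These values include replicate 2 of untreated Ire1 ko, which read 251 against 156 and 169, and are not given without it. Eif2ak3, which encodes PERK, read 14, 17, 15 and 19 in Ire1 ko after tunicamycin, against 11, 11 and 9 untreated. In WT Eif2ak3 read 102, 124, 116 and 148 after tunicamycin, against 14, 12, 15 and 17 untreated. The Eif2ak3 difference of Ire1 ko from WT after tunicamycin was -2.91 (SE 0.15; adjusted p = 1.01e-09), and its interaction was -2.43 (SE 0.22; adjusted p = 3.89e-06).

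Ppp1r15b encodes CReP, the constitutive partner of the same phosphatase that Ppp1r15a serves under stress. It read 77, 80, 80 and 98 in Xbp1 ko and 235, 193, 220 and 198 in WT littermates, a difference of -1.34 on the log2 scale (SE 0.10; adjusted p = 0.00043). On the arrays labelled IRE1 siRNA Ppp1r15b read 68, 63, 54 and 91, against 147, 159, 179 and 160 on those labelled luciferase siRNA, a difference of -1.25 on the log2 scale (SE 0.16; adjusted p = 0.00866). Ppp1r15a overlapped between the groups in both of these comparisons. After tunicamycin Ppp1r15b was higher in Ire1 ko than in WT by a difference of 0.34 on the log2 scale (SE 0.10; adjusted p = 0.0206), opposite to Ppp1r15a.

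Of 17 genes for eIF2α kinases, the phosphatase and the initiation complex, 10 rose and 0 fell after tunicamycin in Ire1 ko, against 11 and 5 in WT. This list also holds Atf4, which is counted among the genes that rose. As given above, of all genes 17.4% were higher and 10.3% lower in Ire1 ko, and 18.5% higher and 17.6% lower in WT. Dnajc3, an ER co-chaperone known as an inhibitor of PERK, rose by a log2 change of 2.11 in Ire1 ko and of 2.59 in WT, and Eif2ak3 by 3.08 in WT. The catalytic subunit gene Ppp1cc, at -0.48, and Eif2ak1, the haem-regulated eIF2α kinase, at -0.56, were the lowest in WT. After tunicamycin 2 of the 17 were higher and 5 lower in Ire1 ko than in WT, with Ppp1cc at 0.46 and Nck1, an adaptor protein, at -1.60 (SE 0.15; adjusted p = 9.37e-07), against a background of 9.68% higher and 8.5% lower. For the interaction 1 of the 17 was positive, Ppp1r15b at 0.53, and 3 were negative, among them Nck1 at -1.47. Over all genes 3.58% were positive and 3.95% negative. Without tunicamycin Dnajc3 was lower by log2 differences of -0.91 in Xbp1 ko and -0.53 in untreated Ire1 ko.

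Of 32 measured targets described for ATF4, 21 rose and 1 fell after tunicamycin in Ire1 ko, against 23 and 3 in WT, with median log2 changes of 0.90 and 1.22. The shares over all genes are those just given. Fgf21, a hepatic hormone, rose by 5.36 in Ire1 ko (SE 0.33; adjusted p = 5.96e-09) and by 6.40 in WT (SE 0.30; adjusted p = 1.11e-10). Psat1, an enzyme of serine synthesis, rose by 3.74 (SE 0.15; adjusted p = 9.86e-11) and 5.71 (SE 0.14; adjusted p = 1.05e-13) in the same order. The lowest were Shmt2, a mitochondrial enzyme of serine and glycine metabolism, at -0.52 in Ire1 ko, and Vegfa, at -0.60, and the tRNA synthetase gene Mars1, at -0.47, in WT. Between the genotypes after tunicamycin, 0 of the 32 were higher and 6 were lower in Ire1 ko, against 9.68% and 8.5% of all genes, including Aldh18a1, an enzyme of proline synthesis, at -3.39 (SE 0.21; adjusted p = 6.2e-09), and Slc7a1, a cationic amino acid transporter, at -2.36 (SE 0.26; adjusted p = 5.75e-06). For the interaction 1 was positive, Slc3a2 at 0.74, and 6 were negative, with Aldh18a1 at -3.31 and Slc7a1 at -2.12, against 3.58% and 3.95% of all genes. Without tunicamycin 0 of 29 changed in Xbp1 ko, and 2 of 32, Slc3a2 at -0.65 and the tRNA synthetase gene Nars at -0.47, were lower in untreated Ire1 ko, where 0.863% of all genes were. On the arrays labelled IRE1 siRNA 5 of 29 were higher and 0 lower, with Slc3a2, the heavy chain of amino acid transporters, at 0.95 (SE 0.10; adjusted p = 0.00523) and Mars1 at 0.34, where 0.649% of all genes were higher.

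Of 12 targets described for CHOP, 6 rose and 2 fell after tunicamycin in Ire1 ko, and 6 rose and 3 fell in WT. The list includes Atf4, which lies upstream of CHOP as described above. Whether CHOP drove any change of a listed gene was not tested. Against the shares over all genes given above, the falls are close to the background. Ero1a, an oxidase of the ER, rose by a log2 change of 2.40 in Ire1 ko (SE 0.21; adjusted p = 4.34e-07) and of 3.51 in WT (SE 0.20; adjusted p = 8.45e-10). Pdia4, an ER disulfide isomerase, rose by 3.27 in Ire1 ko and by 3.36 in WT. Dusp1, a phosphatase of MAP kinases, had log2 changes of -1.38 in Ire1 ko and -2.17 in WT (SE 0.23; adjusted p = 8.48e-07). Bbc3, which encodes the cell death protein PUMA, was at -0.60 in Ire1 ko, and Bcl2l11, which encodes the cell death protein BIM, at -1.13 in WT (SE 0.30; adjusted p = 0.00654). Between the genotypes after tunicamycin 2 of the 12 were higher in Ire1 ko, Dusp1 at 1.31 and Bcl2l11 at 0.95, against 9.68% of all genes. In the same comparison 3 were lower, against 8.5% of all genes. Among these were Ero1a at -1.37 (SE 0.20; adjusted p = 9.62e-05) and the tRNA synthetase gene Wars at -1.20. The interaction was called for 2 of the 12, Ero1a at -1.11 (SE 0.29; adjusted p = 0.0278) and Wars at -1.12 (SE 0.17; adjusted p = 0.000425). Over all genes 3.58% were positive and 3.95% negative.

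Among 28 other C/EBP, ATF and related bZIP genes that could pair with the members, 10 rose and 3 fell after tunicamycin in Ire1 ko, against 11 and 5 in WT. Atf4 is counted here too, so the lists are not separate sets. Over all genes 17.4% were higher and 10.3% lower in Ire1 ko, and 18.5% higher and 17.6% lower in WT. The falls are thus close to the background. Cebpd, a C/EBP factor of the acute phase, rose by 2.17 in Ire1 ko, and Nfil3, a repressor of PAR bZIP targets, by 2.65 in WT. Cebpa, the main C/EBP factor of the resting hepatocyte, fell in WT, with a log2 change of -2.39 (SE 0.19; adjusted p = 3.46e-08) and had an interaction of 1.54 (SE 0.28; adjusted p = 0.00207), of the same sign as that of Cebpb. Dbp, a circadian PAR bZIP factor, had log2 changes of -1.25 in Ire1 ko (SE 0.35; adjusted p = 0.0126) and -3.35 in WT (SE 0.32; adjusted p = 3.58e-07). Hlf, another PAR bZIP factor, was at -0.99 in Ire1 ko. Genes were named by rank within each comparison, so a gene named for WT may also have changed in Ire1 ko, and the reverse. After tunicamycin 4 of the 28 were higher in Ire1 ko than in WT, with Dbp at 2.08 and Hlf at 1.4. In the same comparison 7 were lower, with the ER-bound factor Atf6b at -1.5. Over all genes 9.68% were higher and 8.5% lower. Creb3l2, also ER-bound, rose by 2.45 in WT and differed between Ire1 ko and WT by -2.39 after tunicamycin and by -0.86 untreated, on the log2 scale. In untreated Ire1 ko 0 of the 28 were higher and 4 lower, Creb3l2 and Atf4 among them, where 0.0791% and 0.863% of all genes were. In Xbp1 ko 0 of 28 were called, and between the siRNA groups 0 of 27. For the interaction 3 of the 28 were positive, with Dbp at 2.10 beside Cebpa, and 3 negative, with Atf6b at -1.31 and Creb3l2 at -1.52. Over all genes 3.58% were positive and 3.95% negative.

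The array carried 1 probe set for 7 of the members and several for Nupr1, Cebpb and Cebpg. The second probe set of Nupr1 had an interaction of -1.49 (adjusted p = 0.0054), which passed the threshold that the first one missed. A second probe set of Cebpb gave a log2 difference of 0.95 between Ire1 ko and WT after tunicamycin and an interaction of 1.01, called like those of the first, while the other lay near the floor and showed 0.18 and 0.16. For Cebpg a second probe set rose by 1.96 in Ire1 ko and by 1.83 in WT, and the other, near the floor, gave 0.45 (adjusted p = 0.00934) and 0.28 (adjusted p = 0.0617).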

How the data were processed

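Per the submitters' processing notes the deposited intensities were made by the authors with RMA and the affy package. They are on a linear scale and rounded to whole numbers, and whether all arrays were normalised together is not given in the sources used here. The table held 45037 probe sets, of which 28898 carried 1 gene symbol, 551 several and 15588 were not listed in the array annotation. 0 columns were left unmapped and 0 pairs of arrays were identical. Correlations within groups were 0.9841 to 0.9934, the brightest value per array was 9367 to 24483, and precision is limited by how few arrays a group holds. Of the symbols, 16936 matched RefSeq.

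From these values log2 of the intensity was taken and tested with limma 3.58.1 in R 4.3.3 (eBayes with trend, two-sided), in one fit for each of 3 experiments. A gene was tested where it exceeded the 30th percentile on 3 or more arrays in a fit. Benjamini-Hochberg adjustment ran over all tested genes, with a threshold of 0.05. Each symbol kept its brightest probe set. Replicates are biological by label only. Same-numbered arrays were not taken as pairs, since the correlations of their deviations lay between -0.18 and 0.29. In each comparison the 2 called genes furthest up and down in each list were named, whether or not they also changed in the other genotype. Also named were Atf4, Eif2ak3, Ppp1r15b, and the 5 genes most correlated with Ddit3, Atf3 and Cebpb. The members, lists and rules were chosen with earlier results of these data known. In 3 simulations with 200 changed genes, changes of 1.5 on the log2 scale were recovered in 96% (Xbp1 fit, 13938 to 14002 genes), 96% (siRNA fit, 14232 to 14265 genes) and 98.3% (tunicamycin in WT, 15270 to 15331 genes), and changes of 0.7 in 56.7%, 53.3% and 70.7%. False calls made up 16.1%, 10.2% and 4.1% of all calls in these simulations, above the nominal threshold in the fits of 8 arrays.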

Additional observations from a re-analysis of the deposited data

Results flagged for a closer look

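Of 67 sets of 4 arrays (1 member in 1 group), 8 held an array far from the others of its set, where chance gives about 1 in 20. Most of these lie near the floor, where rounding makes single steps count: Atf3 at 6 in WT untreated replicate 3 (others 5), Nupr1 at 6 in WT untreated replicate 4 (others 5), Ddit4 at 5 in WT littermate replicate 3 (others 4), Ddit3 at 16 in Xbp1 ko replicate 1 (others 15) and Chac1 at 15 in Xbp1 ko replicate 4 (others 14). Ddit3 at 16 on the array labelled IRE1 siRNA replicate 4 lay below 21 to 22. Atf5 at 1130 in replicate 4 of Ire1 ko after tunicamycin lay above 1048 to 1052, and Cebpb at 395 in WT untreated replicate 4 above 312 to 322.

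Groups of 3 were not examined this way, so the reading of 117 for Ddit3 in replicate 2 of untreated Ire1 ko, against 14 and 16, is not among them.

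The tunicamycin response differed between Ire1 ko and WT for Chac1, with an interaction of -2.302 (limma adjusted p = 4.64e-05), and for Cebpb, with 0.8126 (limma adjusted p = 0.00542). For Cebpb all 4 Ire1 ko arrays after tunicamycin lay above the untreated ones, and all 4 WT arrays below.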

How the results depend on the processing

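Of 1207 recomputations of member differences, 1142 kept their direction and side of the threshold, 10 fell short of it, 22 passed it and 33 changed sign, 0 of these for a called difference. Between the siRNA groups 2 members were called with a filter at a group mean of 16, where 402 of 5887 genes were. With the mean of all probe sets 1 member was called, where 198 of 14108 genes were. The interaction called 4 with a common median, a filter at 16, one fit over all arrays and quantile normalization, with 1 higher and 3 lower under a common median and under quantile normalization (1 and 1 in the main setting). The cause was not tested. Over all genes the interaction was called for 1167 of 15172 with a common median and 1299 of 6427 with a filter at 16. It was called for 1414 of 16018 in one fit over all arrays and 1233 of 15172 with quantile normalization. Leaving out 1 array gave 0 to 1 members for Xbp1 ko (1 without WT littermate replicate 2), 2 to 4 for the interaction (4 without untreated Ire1 ko replicate 3) and 3 to 4 between the genotypes after tunicamycin. It gave 10 for tunicamycin in Ire1 ko, 9 in WT, and 0 for the siRNA groups and untreated Ire1 ko. With the replicate block the members called stayed at 0 for Xbp1 ko, the siRNA groups and untreated Ire1 ko, 10 and 9 for tunicamycin in Ire1 ko and WT, 4 between the genotypes and 2 for the interaction. Over all genes the block gave 43 calls for the siRNA groups (251 without it) and 197 for Xbp1 ko (380 without it). A filter at 16 gave 402 for the siRNA groups, one fit over all arrays 571 for Xbp1 ko, leaving out WT littermate replicate 1 gave 237, and untreated Ire1 ko had 95 without its replicate 3 and 143 with it.

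Sign changes concerned uncalled differences. In untreated Ire1 ko, Cebpb was 0.053 with a common median, 0.015 with its probe set near the floor and 0.012 with the replicate block, and Cebpg was 0.066 and 0.034 with its other probe sets. In Xbp1 ko, Cebpb was 0.080 with the same probe set. The interaction of Trib3 was -0.0047 with a common median and -0.030 with quantile normalization. Leaving out 1 array gave these ranges: in Xbp1 ko, Atf3 -0.044 to 0.15, Cebpb -0.19 to 0.11 and Ppp1r15a -0.18 to 0.20; between the siRNA groups, Cebpb -0.11 to 0.21. In untreated Ire1 ko they were Atf5 -0.46 to 0.22, Cebpb -0.16 to 0.10, Nupr1 -0.066 to 0.77 and Ppp1r15a -0.21 to 0.25. After tunicamycin they were Atf5 -0.031 to 0.16 and Ddit4 -0.083 to 0.66, and for the interaction Atf5 -0.14 to 0.53, Ddit4 -0.21 to 0.53 and Trib3 -0.19 to 0.31. Cebpb in WT was called after tunicamycin, for 10 members in all, with the spread estimated without untreated Ire1 ko replicate 2. This setting and the other probe sets were chosen after seeing the data.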
